A study of Talpa occidentalis and Mus musculus with 35 samples.

Results

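Histone genes were described in the gene annotation of the Iberian mole, Talpa occidentalis, assembly talOcc3. A gene line counted as a histone locus when its name, without a copy number or low-confidence mark, began as a cluster histone name (HIST1 to HIST4, followed by the type) or as a variant histone name (H1F, H2AF, H2BF, H3F), or was a current-style symbol of either kind. The rule found 44 loci with 21 symbols among 23336 gene lines, a share of 0.189% (exact 95% interval 0.137 to 0.253%), on 17 of 2074 scaffolds. All 21 names were of the older HIST and variant styles, 30 loci carried a cluster name and 14 a variant name. Low-confidence marks stood on 0 of the 44 loci and on 0.0515% of the 23292 other gene lines.

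The series holds 35 libraries of polyadenylated RNA from gonads in 16 groups, 19 from wild-type moles and 16 from mice, and compares the ovotestis of female moles with testes and with mouse gonads. Embryonic day 15 was covered by 2 libraries of mole ovotestis and 2 of mole testis. For moles of postnatal day 7 there were 3 libraries per tissue, and for adults 2 per tissue, the tissues being ovarian part of the ovotestis, testicular part of the ovotestis, and testis. Mouse groups, with 2 libraries each, were Fgf9 mutant and wild-type B6 ovaries at embryonic day 13.5, and wild-type CD1 ovaries and testes at embryonic day 13.5, postnatal day 7 and 10 weeks. The labels call the Fgf9 animals mutant without naming the allele, and the deposited file held gene models with no value per library, so expression and library depth were not analysed here and nothing below was tested on samples.

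Histones are the proteins around which DNA is wound: pairs of H2A, H2B, H3 and H4 form the core of the nucleosome, and H1 binds the linker DNA where it enters and leaves. Replication-dependent histone genes lie in clusters in mammals, lack introns and are transcribed in S phase, and their mRNAs end in a stem-loop bound by SLBP in place of a poly(A) tail. Variant histone genes lie alone, often have introns and make polyadenylated mRNAs throughout the cell cycle. In the testis, histones are largely replaced by transition proteins and then protamines as sperm chromatin condenses.

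The stem-loop that marks the cluster genes could be read only in mouse, because the mole models held coding parts alone and no genome sequence of talOcc3 was used here. Hairpins with a perfect stem of 6 bases on each side of a loop of 4 bases were counted in the coding transcripts of the 67 mouse genes with a cluster name (GENCODE M21), each gene once. The commonest, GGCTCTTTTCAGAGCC, occurred in 26 of the 67 genes (38.8%, exact 95% interval 27.1 to 51.5%), which is how it was chosen. It also occurred in 1 of 16 mouse genes with a variant name, H2bfm, and in 1 of 21794 other genes, Trim17. Trim17 is on chromosome 11, as is Hist3h2a, and the distance between them was not measured. The reverse complement of the hairpin occurred in 0 genes of each kind. Another hairpin with the same loop, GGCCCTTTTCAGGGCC, occurred in 7 cluster-named genes. A missing match says only that these letters are not in the annotated transcript. The 3 sequences shown belong to mouse genes with the hairpin whose symbols also name mole loci, with the 16 hairpin bases in capitals and 5 flanking bases on each side. Hist1h1c encodes a linker histone (GRCm38 chromosome 13, 23738808 to 23740367), Hist3h2a an H2A (chromosome 11, 58954685 to 58956830) and Hist1h3d an H3 (chromosome 13, 23575763 to 23577011), and each gene is on the plus strand.
Hist1h1c: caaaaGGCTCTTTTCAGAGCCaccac
Hist3h2a: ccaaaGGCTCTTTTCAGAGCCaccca
Hist1h3d: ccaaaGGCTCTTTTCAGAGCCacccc
The 3 genes encode different histone types and share the hairpin because they were picked for it.

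The mole annotation held fewer loci than mouse for each histone type, least so for H3. It had 4 H1 loci against 10 mouse protein-coding genes, 15 H2A loci against 27, 10 H2B loci against 19, 13 H3 loci against 14 and 2 H4 loci against 13. In all, 44 mole loci stood against 83 mouse genes, or 92 when mouse pseudogenes and other biotypes were counted. Cluster names numbered 30 in mole and 67 in mouse, and variant names 14 in mole and 16 in mouse. Within the variant names, H1 had 1 mole locus against 4 mouse genes, H2A had 5 mole loci against 9 mouse genes, and 6 of the 14 mole loci belonged to the symbol H3F3A. H4, the core histone with the fewest variants in mammals, had 2 cluster-named mole loci and 13 cluster-named mouse genes. Of the 13 mole H3 loci, those 6 carried a variant name, against 2 of the 14 mouse H3 genes. Among the 6, 5 were single-exon models, whereas mouse pseudogenes were left out of the 14. With mouse genes of all biotypes, H3 stood at 13 against 18. Cluster-named H3 stood at 7 against 12, beside 10 against 18 for cluster-named H2A. Of the 21 mole symbols, 17 also named a mouse gene.

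**Figure D1:**
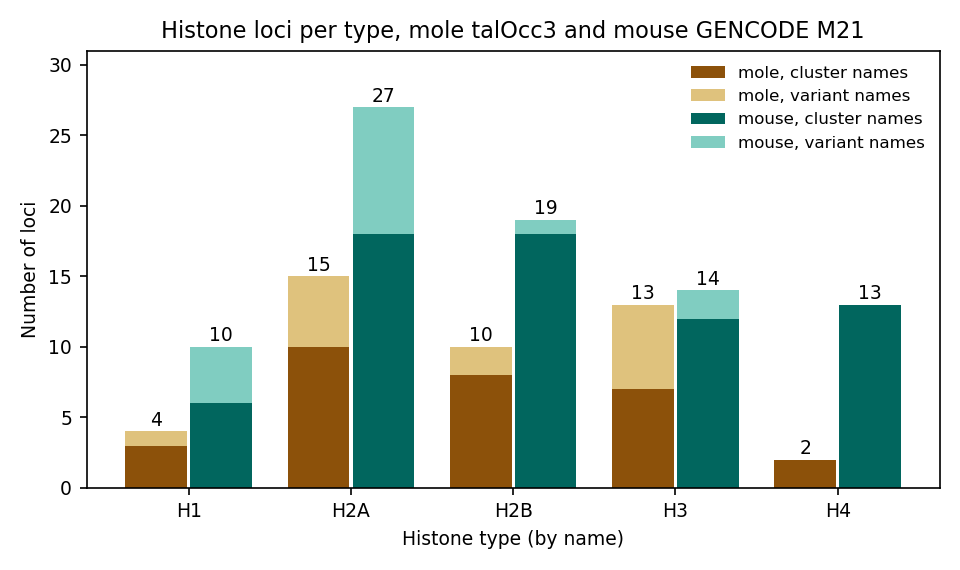
Number of histone loci (vertical axis) of each type (horizontal axis) in the mole annotation, left bar, and among mouse protein-coding genes, right bar, each split into cluster names (dark) and variant names (light) with the total above. The bars for H3 are nearly level at 13 in mole and 14 in mouse, but their cluster-named parts are 7 and 12. H4 stands at 2 in mole and 13 in mouse.

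Among H1 loci, the linker histones, HIST1H1A, HIST1H1C and HIST1H1T were single-exon models of 654, 639 and 618 coding bases. HIST1H1T is the testis-specific H1 of spermatocytes. The same mouse genes measured 642, 639 and 630 bases, stop codon included. Whether the mole models include a stop codon was not checked. H1FOO, the linker histone of the oocyte, was the longest H1 model, with 2 exons and 852 coding bases, against 5 exons and 915 bases in mouse, and 507 of its 852 bases aligned to the reference transcript of its symbol.

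H2A loci formed the largest type. They comprised 10 cluster-named loci, of which HIST3H2A named 8, HIST2H2AB 1 and HIST2H2AC 1, and 5 variants. H2AFX encodes H2A.X, the variant phosphorylated at DNA breaks and over the unpaired sex chromosomes of spermatocytes. Its model was the shortest of all 44, with 174 coding bases in mole and 432 in mouse, and covered positions 74 to 247 of the reference transcript. HIST3H2A_copy5 was the longest, with 1324 coding bases over 6 exons, of which 372 aligned.

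H2B loci comprised 8 cluster-named loci, of which HIST1H2BK named 4, HIST2H2BE 2 and HIST2H2BF 2, and the 2 loci of H2BFWT, a testis H2B variant in human. Cluster-named H2B models ran from 390 to 431 coding bases, all above the mouse H2B median of 381. The H2BFWT models had 3 exons each and 780 and 781 bases. Their scores were the lowest of any histone symbol, 198 at the better locus, with 260 bases of the reference transcript covered by 677 model bases there.

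H3 loci comprised the 6 of H3F3A, 5 of HIST2H3C and 1 each of HIST1H3D and HIST2H3D, and ran from 246 coding bases at H3F3A_copy3 to 984 at HIST2H3C_copy4. H4 had the 2 loci of HIST1H4J, single-exon models of 336 and 309 bases, against 312 bases in every one of the 13 mouse H4 genes. One of these lay in a cluster on scaffold 48. The higher-scoring one lay alone on scaffold 18 at 36326296 to 36326631, between PSMA1, a proteasome subunit gene, and CDC42.

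Introns were common among models with cluster names. Of the 44 histone loci, 23 had a single exon (52.3%, 95% interval 36.7 to 67.5%), against 24.7% of the 23292 other gene lines. Cluster names had a single exon at 16 of 30 mole loci (53.3%, 34.3 to 71.7%) and at 64 of 67 mouse genes (95.5%, 87.5 to 99.1%). Variant names had a single exon at 7 of 14 mole loci and 9 of 16 mouse genes. These sets are unlike: 5 of the 7 mole loci were lower-scoring H3F3A loci, whereas mouse pseudogenes were left out. The kind of model moved with this share: 36 of the 44 histone models (81.8%) carried the label exonerate, against 25.4% of other lines. Among exonerate models, 20 of 36 histone loci (55.6%, 38.1 to 72.1%) had a single exon, against 79.6% of the others. The 5 histone models labelled EVM were variants (H2AFY2, H1FOO, H2AFV, H3F3A and H2AFY) and had 2 to 8 exons, and the 3 labelled ALN (H2AFX, HIST1H1C and HIST1H1A) had 1 each. The part of the model label in the share was not tested.

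By type, the cluster-named models with several exons were 6 of 10 H2A, 2 of 8 H2B, 6 of 7 H3, 0 of 3 H1 and 0 of 2 H4. In these 14 models, 4899 of 5582 aligned bases (87.8%) lay in 1 coding part, and 11 of the 14 had at least 90% of their aligned bases in that part. The remaining parts were thus mostly outside the alignment. The 21 gaps between their parts had a median of 3550 bases and ran from 450 bases to 100 kb, the longest within HIST2H3C_copy4.

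The H2A models show this most regularly. The transcript identifiers name the protein that each exonerate model was aligned from, and a single protein stood behind 7 histone models: H2AFJ and 6 cluster-named H2A loci. Those 6 loci had 2 to 6 exons and 621 to 1324 coding bases (median 694.5), yet 370 to 376 aligned bases (median 372). In 5 of them a part of 248 to 278 bases lay 450 to 526 bases upstream of the aligned part. The gap was 471 bases in HIST2H2AC, 456 in HIST3H2A_copy8, 526 in HIST3H2A_copy5, 450 in HIST3H2A and 466 in HIST3H2A_copy3. In HIST3H2A_copy7 the upstream part had 264 bases and the gap was 18.4 kb. The 4 cluster-named H2A loci from other proteins were single-exon models of 402 to 414 bases with 367 to 391 aligned. These cluster-named H2A loci thus differed in coding length between proteins of origin, without overlap, and hardly in aligned bases. The variant locus H2AFJ, from the same protein as the 6, was a single-exon model of 438 bases with 437 aligned.

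The H3 models with several exons mostly joined parts that were each about as long as an H3 coding region, which was 411 bases in 13 of 14 mouse H3 genes. HIST1H3D had parts of 410 and 388 bases that lay 7.93 kb apart. HIST2H3C had parts of 421 and 353 bases, HIST2H3C_copy2 of 406 and 389, HIST2H3C_copy3 of 334 and 347, and HIST2H3C_copy4 of 314, 357 and 313. Parts of 300 to 450 bases, a range chosen after the values were seen, occurred at least 2 times in 6 of the 14 cluster-named models with several exons, against 5.58% of other models with several exons. In HIST1H3D both parts aligned, over 407 and 382 bases, whereas in HIST2H3C, copy2, copy3 and copy4 the second-best part aligned over 17 bases at most.

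Coding length was a multiple of 3 in 40 of 44 histone models (90.9%), against 87.8% of other lines, and the 4 exceptions were HIST1H2BK, HIST3H2A_copy5, H2BFWT_copy2 and H3F3A_copy5. The median coding length was 430 bases (95% interval 411 to 639) for histone loci, 1011 for other lines and 393 for mouse histone genes. By type, the mole medians were 646.5 bases for H1, 621 for H2A, 414 for H2B, 411 for H3 and 322.5 for H4, beside mouse medians of 651, 393, 381, 411 and 312. Counting aligned bases alone, the mole medians were 571, 376, 399.5, 347 and 306.5. H2A stood apart in coding length and lay close to mouse in aligned bases. At least 90% of the model aligned in 27 of 44 histone loci (61.4%), against 63.5% of other lines with an alignment.

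**Figure D2:**
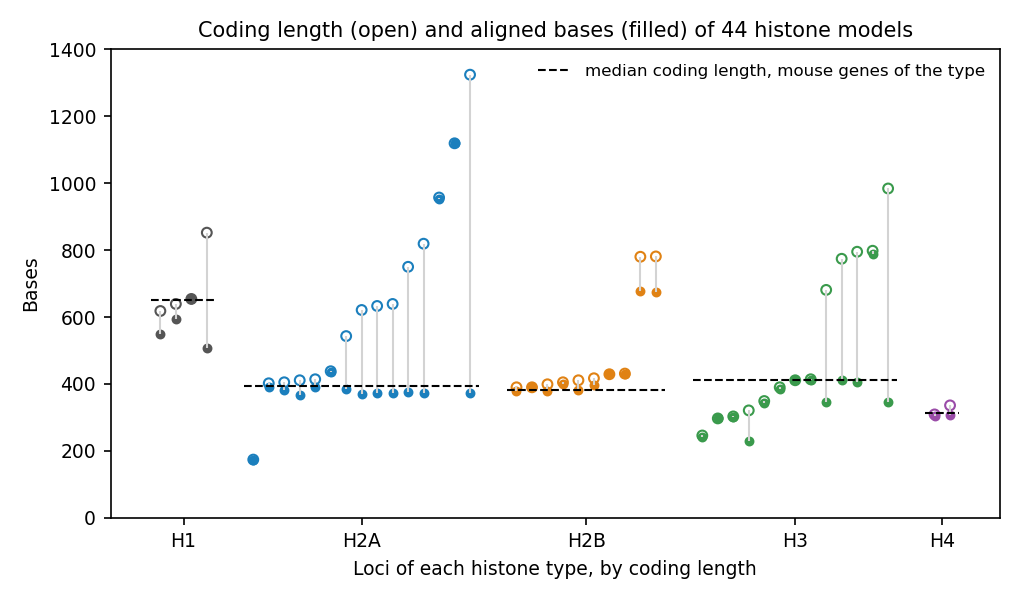
Bases (vertical axis) of each of the 44 histone models, grouped by type and ordered by coding length (horizontal axis), with coding length as open circles, bases aligned to the reference transcript as filled circles, and the mouse median coding length of the type as a dashed line. Open circles of H2A and H3 rise to 1324 and 984. Most filled circles of H2A stay near the mouse median of 393. Those of H3 spread from 231 to 789, with a median of 347 beside the mouse median of 411.

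Most cluster-named loci lay in clusters, and no variant-named locus did. Joining histone loci at gaps of up to 100 kb, and asking for at least 3, gave 4 clusters with 27 of the 44 loci (61.4%, 95% interval 45.5 to 75.6%), namely 27 of 30 cluster-named loci and 0 of 14 variant-named loci. The 2 variant loci of H2BFWT overlapped each other on scaffold 32, below the 3 loci asked for. In mouse the same rule gave 4 clusters with 62 of 83 genes (74.7%, 64.0 to 83.6%), of 18, 5 and 29 genes on chromosome 13 and 10 genes on chromosome 3. The nearest locus of any kind was a histone locus for 23 of 43 histone loci (53.5%) on scaffolds with another gene. All 6 loci of the cluster on scaffold 48 were outside the 23, because the span of ZNF43 overlapped each of them. The same share was not taken for other gene lines.

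The cluster on scaffold 21 (42387280 to 42445122, 57.8 kb) held 3 H2A, 2 H2B and 1 H3 loci, in the order HIST2H2BF, HIST3H2A_copy7, HIST1H3D, HIST2H2BE, HIST2H2AC and HIST2H2AB. FCGR1A, an immunoglobulin receptor gene, lay inside the span. Beyond HIST2H2AB followed BOLA1, SV2A, SF3B4, MTMR11 and OTUD7B, of which SV2A encodes a synaptic vesicle protein and SF3B4 a splicing factor. In mouse, the same 5 genes lay on chromosome 3 at 22.6 to 64.0 kb from Hist2h2ab, the end gene of the Hist2 cluster, in the same order. The run from HIST2H2BE through HIST2H2AC and HIST2H2AB to BOLA1 was therefore the same in both species. On the other side lay HFE2, TXNIP, POLR3GL and ANKRD34A, which in mouse lay 256 to 327 kb from Hist2h2bb at the opposite end.

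The cluster on scaffold 40 (342188 to 345436, 3.25 kb) was the smallest, with HIST3H2A_copy6, HIST2H2BF_copy2 and HIST3H2A_copy8. It lay between loci of SLC17A4, a transporter gene, and of DDX21 on one side and SCGN, which encodes a calcium-binding protein, and CARMIL1 on the other. In mouse, the pair Hist1h2ba and Hist1h2aa lay between Slc17a4 (24.9 kb from it) and Scgn (19.0 kb from it), with Carmil1 next. The mole loci in this place carried HIST2 and HIST3 names, while the mouse genes carried Hist1 names.

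The cluster on scaffold 47 (4422447 to 4638073, 216 kb) was the largest, with 3 H1, 2 H2A, 3 H2B and 4 H3 loci and 0 H4 loci. HFE, the hemochromatosis gene, lay inside it, 12.3 kb from HIST1H1T and 23.8 kb from HIST1H1C. HIST1H1A closed the cluster. The order HIST1H1T, HFE, HIST1H1C, HIST1H1A was that of mouse chromosome 13, where the cluster of 29 genes spans 233 kb. On one side lay BTN2A2 and BTN1A1, which encode butyrophilins, then HMGN4 and ABT1. On the other side lay OR2J3, an olfactory receptor locus, and TRIM38 loci, and in mouse Trim38 lay 18.2 kb from Hist1h1a. A single HIST1H2BK locus lay on the same scaffold outside the cluster, at 4062734 to 4063164, next to PRSS16 and VN1R4.

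The cluster on scaffold 48 (767539 to 856156, 88.6 kb) held 3 H2A, 1 H2B, 1 H3 and 1 H4 loci, all 6 on the plus strand. All 6 fell within the span of ZNF43, a zinc finger locus on the minus strand with 4 exons. OR2B2 lay before the cluster, and ZNF25, ZNF429, TBC1D7 and PHACTR1 after it. The other 3 clusters each had histone loci on both strands.

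**Figure D3:**
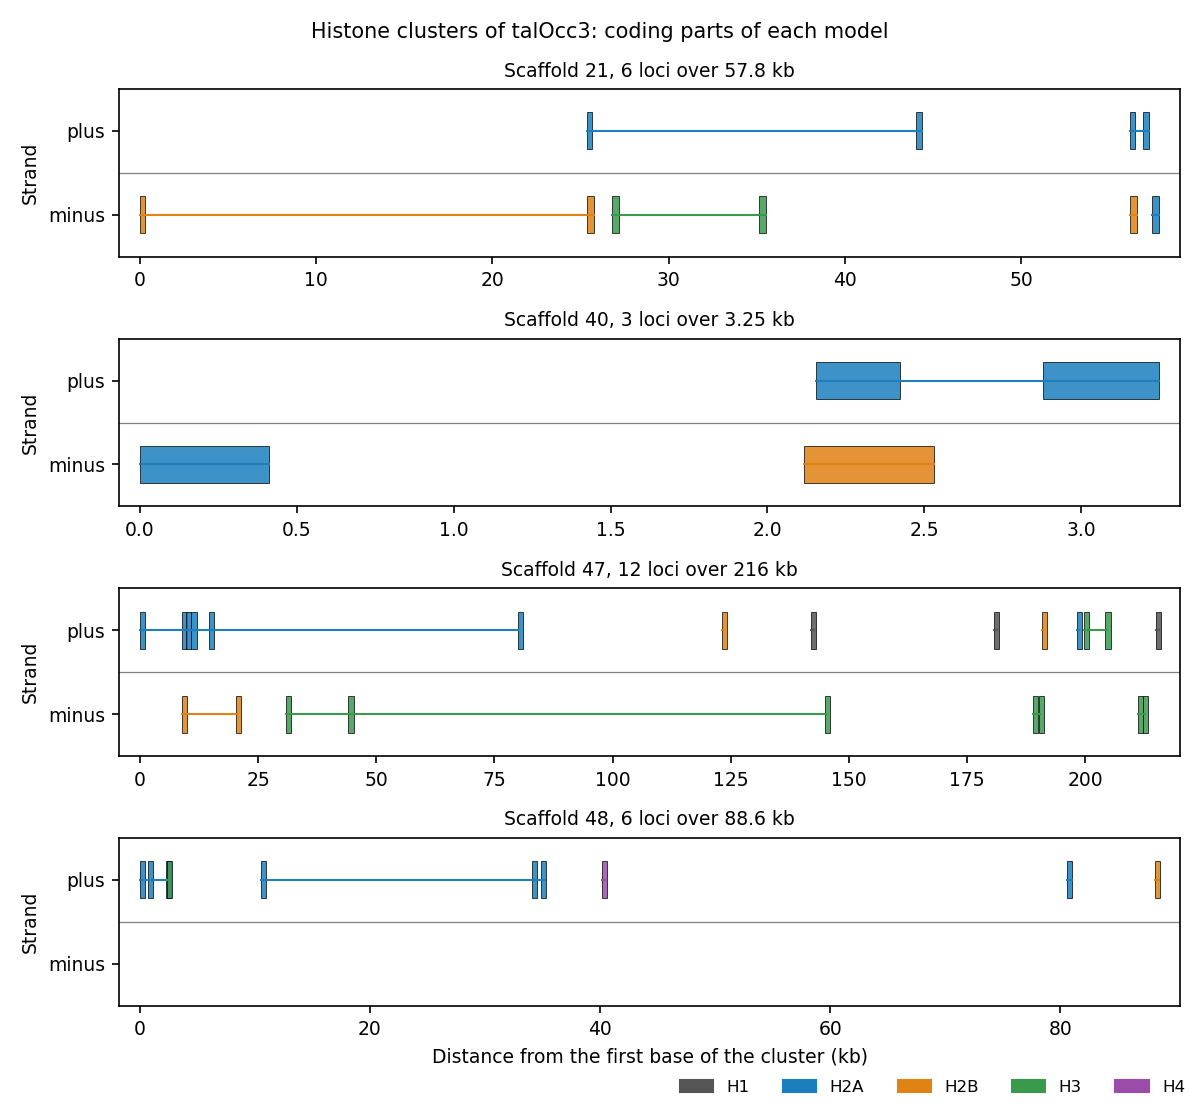
Coding parts (boxes) of the histone models in the 4 clusters, with lines joining the parts of a model, strand on the vertical axis and distance from the first base of the cluster in kb on the horizontal axis; the scale differs between panels, and short parts are drawn at a minimum width of 0.5% of the cluster. Models of scaffolds 21 and 47 reach across other models, and all 6 models of scaffold 48 are on the plus strand.

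Family numbers in the names were mixed within the clusters. The clusters on scaffolds 40 and 47 lay by SCGN, HFE, BTN1A1 and ABT1, which in mouse lie by the Hist1 genes. The cluster on scaffold 40 held 0 HIST1, 1 HIST2 and 2 HIST3 names, and that on scaffold 47 held 5 HIST1, 5 HIST2 and 2 HIST3 names. The cluster on scaffold 48 held 2 HIST1, 1 HIST2 and 3 HIST3 names. Its flanking genes TBC1D7 and PHACTR1, 223 and 273 kb away, lie on mouse chromosome 13 far from the Hist1 genes. OR2B2, 8.63 kb away on the other side, was not placed in mouse. On scaffold 21, with the flanks of mouse Hist2, the cluster held 1 HIST1, 4 HIST2 and 1 HIST3 names. GUK1 and IBA57, which lie near the HIST3 cluster in human, were on scaffold 54, which held 0 histone loci. Other listed genes of that region were not there: TRIM11 was on scaffold 2593, and TRIM17 and RNF187 had no locus under these names. Whether histone genes lie in that region in the mole could therefore not be read from scaffold 54. The name HIST3H2A stood on loci of scaffolds 21, 40, 47 and 48. Histone genes of a type are close paralogs, and the part of this in the names was not tested, so the names of single loci are given as uncertain.

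The later assembly MPIMG_talOcc4v2.1, used for gene order alone, placed the landmarks of 3 talOcc3 scaffolds in a single run. The order was CARMIL1 and SCGN (scaffold 40), then H1-1, H1-2, HFE, H1-6, H1-4, BTN1A1, HMGN4, ABT1, PRSS16 and ZNF184 (scaffold 47 for those with a talOcc3 locus), H1-5, and TBC1D7 and PHACTR1 (scaffold 48). These landmarks were not all close: 47 protein-coding loci lay between SCGN and H1-1, 26 between ZNF184 and H1-5, and 118 between H1-5 and TBC1D7. H1-1, H1-2 and H1-6 are the current symbols of HIST1H1A, HIST1H1C and HIST1H1T, and their order around HFE was the same in both assemblies. HIST1H1E and HIST1H1B, the older symbols of H1-4 and H1-5, named 0 loci in talOcc3. Between H1-1 and H1-6 the later assembly listed 8 protein-coding loci, and talOcc3 had 7 loci between HIST1H1A and HIST1H1T, of which 6 were histone loci. BOLA1, SV2A, SF3B4 and MTMR11 were adjacent in another run.

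H2A and H2B genes of mammals often stand head to head and share the promoter region between them. Ordered by the midpoints of whole models, the mole annotation had 7 neighbouring H2A and H2B pairs. Of these, 3 were divergent, 1 convergent and 3 on the same strand. Mouse had 14 neighbouring pairs, of which 12 were divergent, with 278 to 334 bases (median 299) between the coding spans. In HIST2H2AC and HIST2H2BE, 315 bases lay between the main aligned parts, and 321 bases lay between the coding spans of the same genes in mouse. In HIST3H2A_copy8 and HIST2H2BF_copy2 on scaffold 40 the distance was 345 bases, and 305 bases between Hist1h2aa and Hist1h2ba at the corresponding place in mouse. In the third pair, HIST3H2A_copy5 and HIST1H2BK_copy4, the models were interleaved. Their main aligned parts lay in the reverse order and faced each other, so this pair was divergent by model midpoints only.

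Histone models shared coding bases with the opposite strand more often than other models. This held for 10 of 44 histone loci (22.7%, 95% interval 11.5 to 37.8%), against 1.25% of other gene lines. The 4 pairs of histone loci among them each joined an H2A with an H2B model. HIST2H2AC shared 255 bases with HIST2H2BE, HIST3H2A_copy8 shared 267 with HIST2H2BF_copy2, HIST3H2A_copy7 shared 254 with HIST2H2BF, and HIST3H2A_copy5 shared 153 with HIST1H2BK_copy4. In each pair the shared part of the H2A model was the upstream part described above, with 0 to 4 aligned bases. The H2B part there lay within the alignment interval. In HIST1H2BK_copy4, however, that interval held 429 model bases against 276 bases of the reference transcript. Whether its 153 shared bases matched the reference is thus not known. The remaining 2 loci were H2AFY, which overlapped C5orf66, and the lone HIST1H2BK, which overlapped a model without a symbol.

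Variant histone loci were set beside their mouse counterparts by the genes that flank them. For each of the 5 variant symbols whose neighbours are given here (H2AFY2, H2AFY, H2AFV, H2AFJ and H3F3A), the best mole locus had both neighbours of the mouse gene. H2AFY2, which encodes a macroH2A, lay on scaffold 11 between COL13A1 and AIFM2, with 8 exons and 1119 coding bases in both species. H2AFY, the other macroH2A gene, lay on scaffold 3 between TIFAB and PITX1, with 7 exons and 957 bases in mole and 8 exons and 1119 bases in mouse. H2AFV, of the H2A.Z family, lay on scaffold 12 between PPIA and PURB and had 5 exons in both species, with 543 bases in mole, of which 385 aligned, and 387 in mouse. H2AFJ lay on scaffold 31 between WBP11 and GUCY2C with 438 bases, against 390 in mouse. Beside mouse H2afj lies Hist4h4, whereas 0 other histone loci lay on mole scaffold 31. H2AFX lay on scaffold 14 and H1FOO on scaffold 12. The mouse variants H1f0, H1fnt, H1fx, H2afb1, H2afb2, H2afb3, H2afz, H2bfm and H3f3b had no mole locus under these names and were not analysed here.

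H3F3A, which encodes the replacement histone H3.3, had a locus with introns and 5 without. The first, on scaffold 14 (50906597 to 50912215, plus strand) between SDE2 and ACBD3, had 3 exons and 411 coding bases, as in mouse, and the highest score of the symbol, 716. The other 5 lay on 5 other scaffolds and had 1 exon each. Their scores were 89.0% of that value on scaffold 19, 55.6% on scaffold 25, 51.5% on scaffold 58, 48.2% on scaffold 8 and 45.0% on scaffold 24. Their coding lengths, in the same order, were 414, 246, 390, 349 and 297 bases. The nearest genes were DYRK2, BRIP1, FLOT1, THBS4 and SHROOM4, so each single-exon locus lay in a different neighbourhood. The loci on scaffolds 8 and 24 were the 2 histone loci with a score below 50% of the highest of their symbol (4.55%), against 10.3% of other scored lines.

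**Figure D4:**
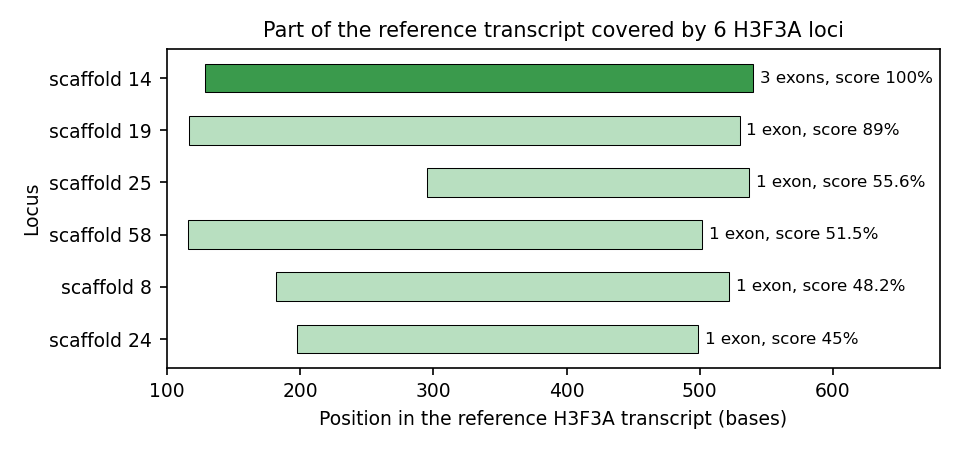
Interval of the reference H3F3A transcript (horizontal axis, bases) covered by each of the 6 mole loci (vertical axis, by scaffold), with the number of exons and the score as a percent of the highest beside each bar. The dark bar is the locus with 3 exons; among the single-exon loci, only the one on scaffold 19 scored above 55.6%.

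Several loci under a symbol were frequent among histones, with 8 of 21 symbols (38.1%, 95% interval 18.1 to 61.6%), against 14.6% of the 16175 other symbols. HIST3H2A had 8 loci, H3F3A 6, HIST2H3C 5 and HIST1H2BK 4, and H2BFWT, HIST1H4J, HIST2H2BE and HIST2H2BF had 2 each. Scores within HIST3H2A lay close together, from 82.4% of the highest upwards over 8 loci on 4 scaffolds. Within HIST2H3C the lowest was 54.2%, at copy5, which lay alone on scaffold 12314 from base 80 to base 1560 with no other gene line there. Within HIST1H2BK the lowest was 67.0%. Apart from HIST2H3C_copy5, no copy of a cluster name scored below that value, whereas 4 of the 5 single-exon H3F3A loci did.

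Genes that serve histones had a different shape, and each listed processing, transcription or deposition gene had a locus under its name. Whether these models were complete was not measured. All 12 listed genes of histone mRNA 3′ processing and histone gene transcription had a locus, among them SLBP, which binds the stem-loop (10 exons, 2445 coding bases, scaffold 10), and NPAT, the coactivator of histone gene transcription (17 exons, 3561 bases, scaffold 37). Their median was 10 exons and 2208 coding bases. LSM10, of the U7 particle that cuts histone pre-mRNA, was the 1 single-exon member, with 369 bases. All 20 listed chaperones and deposition factors had a locus, with a median of 13.5 exons and 2373 bases, such as CHAF1A of the replication-coupled chaperone CAF-1 (14 exons, 2808 bases) and HIRA, which deposits H3.3 (26 exons, 3264 bases). NPM2, the histone chaperone of the egg, was the 1 single-exon member, with 603 bases on scaffold 7223. Several loci occurred for 2 of the 12, SLBP and COIL, and for 3 of the 20, UBN1, ANP32E and NAP1L1. Of 5 listed proteins that take the place of a histone, the transition proteins TNP1 (2 exons, 165 bases) and TNP2 (5 exons, 675 bases) had a locus, and the centromeric histone CENPA and the protamines PRM1 and PRM2 had none under these names.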

How the data were processed

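The labels describe 35 polyadenylated RNA libraries, and the submitters' processing notes list mm9 as a build and STAR 2.6.1d as a tool, without a role. The file analysed was the deposited annotation of talOcc3, with 1-based positions and a score that the authors deposited on transcript models beside a reference interval. The meaning of the score and the making of models labelled EVM, exonerate or ALN are, in the sources used here, not stated. Scores enter as percents of the highest score of a symbol. Columns of per-sample values left unused numbered 0, so no expression test was run and no depth is known.

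Gene lines were joined to transcripts and coding parts in Python 3.11.15 (numpy 2.4.6, scipy 1.17.1, figures with matplotlib 3.10.9). A coding part counted as an exon, since the models hold no untranslated regions. Aligned bases are model bases inside the deposited alignment interval. Types and classes follow names. Clusters joined loci at up to 100 kb. Flanking neighbours exclude histone loci, and the nearest locus may be any gene line. Intervals are exact binomial for shares (95%) and from order statistics for medians (the range below 6 values). They describe gene models, not animals. Mouse values are protein-coding genes of GENCODE M21 (GRCm38), longest coding sequence with its stop codon. MPIMG_talOcc4v2.1 gave names and order, with sequence ends inferred where positions fall back. Every histone locus could be named, with detail for clusters, symbols with at least 3 loci, variants and extremes of length. Members and lists were chosen with earlier results of these data known. The joins were tested on simulated data with 23432 genes, where 140 of 140 planted loci and 20 of 20 planted clusters were found, with 0 others. Planted gaps within clusters were all below the joining distance and no planted histone loci overlapped, so this checked the code and not the cluster rule. Alternatives are given in the closing section. A few flanking genes are not reported here.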

Additional observations from a re-analysis of the deposited data

How the results depend on the processing

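Counts were called unchanged within 1.5 times the reported count, and shares and medians within the reported 95% interval, which is wide for medians of few loci. Leaving out low-confidence loci could change nothing, as 0 loci carry the mark. Of the other 78 alternative values, 74 were within these limits, 4 moved and 0 reversed. With names as written, copy marks included, 0 symbols had several loci. With aligned bases in place of coding bases, an alternative chosen after seeing the data, the median became 571 for H1, 376 for H2A and 306.5 for H4. Counting overlapping histone loci once left 38 loci, 3 clusters and an H2A median of 490.5 bases, and adding models without a symbol from the same proteins, also chosen after seeing the data, gave 46 loci. Joining at 50 kb kept 61.4% of loci in 4 clusters, and at 500 kb gave 63.6%. Types with few loci, such as H4 with 2, carry little precision. Counts rest on names and on how near-identical copies were assembled and modelled, and a histone gene in a gap or under another name was not counted. No paired analysis was possible because the deposited file holds no value per library.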

Other observations

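A pair of models without a symbol came from proteins that also stood behind histone models, both on scaffold 47. One, from 4518266 to 4518886 within the cluster, had 2 exons and 534 coding bases and came from the protein behind HIST1H4J. The other, from 4062045 to 4065274 on the strand opposite HIST1H2BK, had 3 exons and 945 coding bases and came from the protein behind the 6 H2A models with several exons. The proteins behind histone models numbered 23, of which 7 stood behind at least 2 histone models each and 23 models in all, and 0 models of another symbol came from any of them.

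Cluster and variant names came together from 3 of these proteins. The protein behind the 6 H2A models also stood behind H2AFJ. The protein behind the H2BFWT pair on scaffold 32 also stood behind HIST1H2BK_copy4 on scaffold 47. The protein behind HIST2H3C, a cluster name, also stood behind H3F3A_copy3 and H3F3A_copy6, which are single-exon loci of the variant name on scaffolds 25 and 24.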
